A study of Saccharomyces cerevisiae with 3 samples.

Results

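The comparison described here sets the array of yeast expressing a C-terminal fragment of Zuo1 against the array of yeast carrying the control plasmid, which are 2 of the 3 arrays of the study, and covers all 5777 measured genes. The cells were Saccharomyces cerevisiae of strain DS10, freshly transformed with the plasmid pRS415 and grown to log phase in medium lacking leucine. The control plasmid held TAP behind the GPD promoter and is called vector. Behind the same promoter, the Zuo1 plasmid held the stretch of Zuo1 from residue 365 to residue 433, carrying S427G (numbered along the protein), and the third array came from cells with Ssz1 S295F behind that promoter. RNA was extracted with hot phenol, pooled from 3 cultures per plasmid and labelled with Cy3 for 1 NimbleGen array each. The design therefore models over-expression of a fragment from a strong promoter, in cells that still have their own ZUO1 gene. Since the RNA was pooled and not hybridised again, differences are given as sizes between these arrays, without p-values or a measure of variation among cultures.

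Zuo1 is a J-protein that works with the Hsp70-type protein Ssz1 in the ribosome-associated complex, which binds ribosomes near the exit of the nascent chain. Outside that complex both proteins are known to activate Pdr1, a zinc cluster transcription factor that drives drug efflux pumps and lipid-modifying enzymes. The comparison asks which transcripts differ in level when the fragment with S427G is expressed.

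Each intensity below is the mean of 3 blocks of an array, taken on the log2 scale and turned back to the linear scale. A log2 ratio is the Zuo1 fragment array minus the vector array, and the figure after ± is its SD over the 3 blocks, which covers noise within the arrays and not between cultures. A gene is called higher or lower where the ratio reached 2-fold, a rule of size. By this rule 210 genes (3.64%) were higher, 50 (0.866%) were lower and 5517 lay within 2-fold. Over all genes the median ratio was -0.12, and list medians are read against that value. Of the called genes 80.8% were higher. That share was 89.0% with ratios centred on their median and 89.8% after quantile normalization. It was 94.9% with the trend on level subtracted and 91.4% with the trend on coding length subtracted. With the threshold at 1.5-fold it was 51.5%, from 439 higher and 414 lower genes, and at 3-fold 95.8%. ZUO1 itself read 13337 with vector, 12935 with the fragment and 13744 with Ssz1 S295F. The places of its probes were not used here, so this reading does not check the fragment. Of the mating type genes, STE2 of a cells read 13762 with vector and 13400.5 with the fragment, while STE3 of alpha cells read 37.9 and 26.2.

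**Figure D1:**
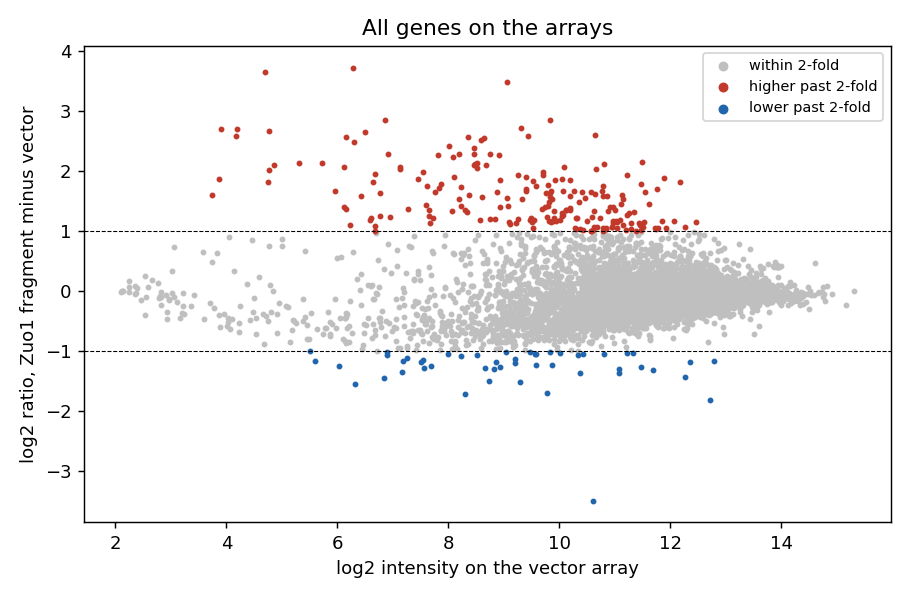
Log2 ratio of the Zuo1 fragment array over the vector array (y axis) against log2 intensity on the vector array (x axis), 1 point per gene for 5777 genes, with dashed lines at 2-fold. The 210 higher genes (red) lie mostly at low and middle vector levels, and the 50 lower genes (blue) mostly at low levels.

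The higher genes were not at the top of the range with vector. Their median intensity was 873 with vector and 2451 with the fragment, against medians of 2806 and 2720 for all genes. With the genes in 10 equal bins by vector level, 13.5% of the dimmest bin were higher, and none was in the brightest 2 bins. The vector reading is itself part of the ratio, so these shares depend on the array used for the bins. In bins by fragment level, 5.36% of the dimmest and 1.90% of the brightest bin were higher. In bins by the mean level of both arrays these shares were 8.65% and 0%. For 44 of the 210 the vector reading was dim, that is under 211, the 5th percentile on the vector array (189 on the fragment array), where a ratio is less certain than its block SD shows. In size, 102 had a ratio of at least 1.5 and 43 of at least 2, while 61 lay within 0.2 above the threshold.

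The genes ranking 13 to 40 among the higher genes of adequate brightness cover functions from mRNA export to the cell wall. All 28 read between 1263 and 16300.4 with the fragment and between 269.9 and 4626 with vector, and their log2 ratios ran from 1.74 to 2.28. No reading of theirs on the vector array lay below the 5th percentile. On the Ssz1 S295F array 26 of the 28 read higher than with the fragment and 2, DCR2 and SLP1, read lower. Both constructs are compared with the same vector array, so the readings of the third array are given beside the others and not as a second measurement of the change.

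**Figure D2:**
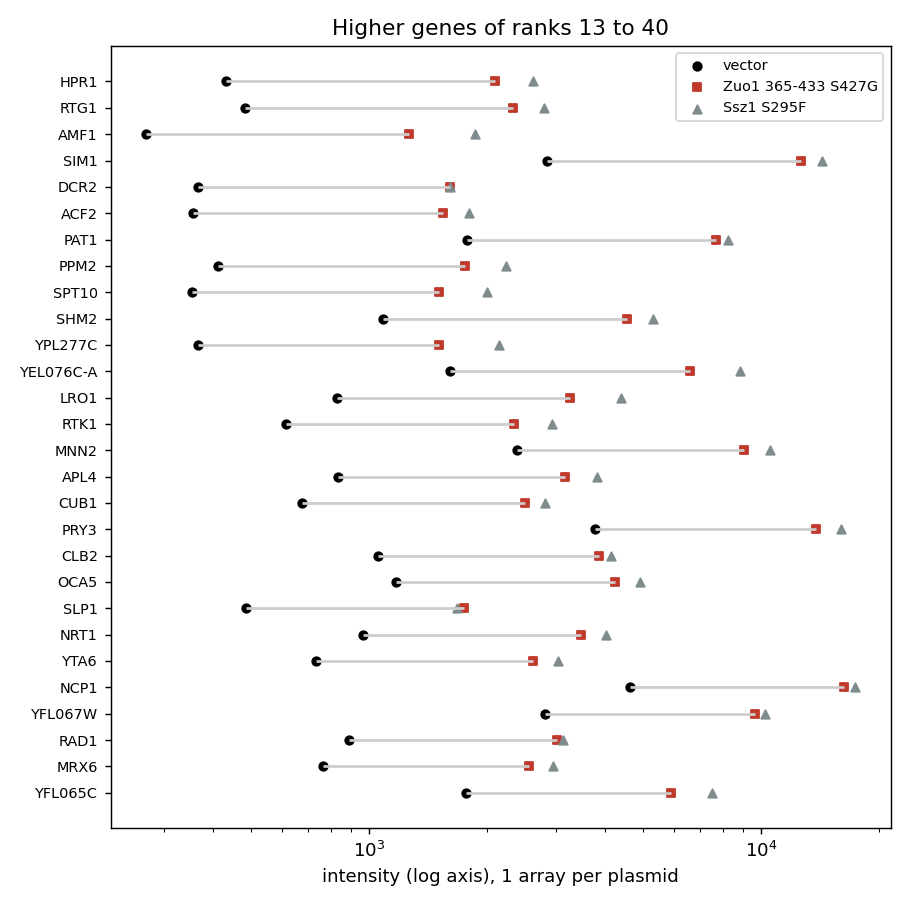
Intensity (log axis) of the 28 higher genes of ranks 13 to 40 on the vector, Zuo1 fragment and Ssz1 S295F arrays, 1 array per plasmid, with a grey line joining vector and fragment. Each gene reads at least 3 times as high with the fragment as with vector, and the Ssz1 S295F point lies close to that of the fragment.

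Genes of transcription and RNA handling are described before the others. HPR1, a subunit of the THO complex that couples transcription to mRNA export (YDR138W, chromosome IV, 730575 to 732833 on the chromosome sequences that the array files cite without a build name, the source of all coordinates here), read 432 with vector, 2095 with the fragment and 2626 with Ssz1 S295F. Its log2 ratio was 2.28 ± 0.02. The other THO genes did not share it, with THO2 at 0.46 ± 0.11, MFT1 at -0.16 ± 0.04, THP2 at -0.37 ± 0.01 and TEX1 at -0.14 ± 0.01. PAT1, an activator of mRNA decapping (YCR077C, chromosome III, 250235 to 252625), read 1784, 7710 and 8248 in the same order of arrays, a ratio of 2.11 ± 0.03. Its partners in decapping lay under 2-fold, with the helicase gene DHH1 at 0.65 ± 0.13 and DCP1, DCP2 and LSM1 at -0.38, -0.17 and -0.19. PPM2, which acts late in the making of wybutosine in phenylalanine tRNA (YOL141W, chromosome XV, 56451 to 58538), read 412, 1764 and 2241, a ratio of 2.10 ± 0.01. The other wybutosine genes TYW1, TRM5, TRM12 and TYW3 lay between -0.13 and 0.19.

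RTG1 and RTG3 encode the paired factors of retrograde signalling, by which cells with impaired mitochondria induce nuclear genes. RTG1 (YOL067C, chromosome XV, 201985 to 202518) read 482 with vector, 2327 with the fragment and 2804 with Ssz1 S295F, a ratio of 2.27 ± 0.06, and RTG3 read 1229, 3907 and 4614, a ratio of 1.67 ± 0.06. Their upstream regulators RTG2 (0.10 ± 0.15) and MKS1 (-0.17 ± 0.04) stayed near the vector level. CIT2, the peroxisomal citrate synthase gene that serves as the classic target of the pathway, was at -0.17 ± 0.00. Both subunits of this factor were thus higher past 2-fold while the target named was not.

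SPT10, an activator of histone genes (YJL127C, chromosome X, 182296 to 184218), read 354 with vector, 1510.3 with the fragment and 2005 with Ssz1 S295F, a ratio of 2.09 ± 0.04, while SPT21, which acts with it, was at -0.06. RAD1, the catalytic subunit of the nuclease that cuts on the 5′ side of DNA damage (YPL022W, chromosome XVI, 506695 to 509997), read 889.9, 3017 and 3126, a ratio of 1.76 ± 0.10. Its binding partner RAD10 was at -0.37 ± 0.03 and SAW1, which recruits the nuclease to flaps, at -0.65. CLB2, the main mitotic B-type cyclin (YPR119W, chromosome XVI, 771651 to 773126), had a ratio of 1.87 ± 0.06, whereas CLB1, CLB3 and CLB4 were at -0.45, -0.17 and -0.16.

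Lipid and membrane genes were the next group. LRO1, which makes triacylglycerol from phospholipid (YNR008W, chromosome XIV, 640398 to 642383), read 829 with vector, 3265 with the fragment and 4387 with Ssz1 S295F, a ratio of 1.98 ± 0.09. DGA1, the other enzyme of triacylglycerol synthesis, was at 0.00, and the sterol esterification genes ARE1 and ARE2 were at 0.58 and 0.34. NCP1, the reductase that feeds electrons to the cytochrome P450 enzymes of ergosterol synthesis (YHR042W, chromosome VIII, 190536 to 192611), was the brightest of the 28, at 4626, 16300.4 and 17409, a ratio of 1.82 ± 0.09. The P450 gene ERG11 was at -0.02 and the cytochrome b5 gene CYB5 at 0.13. APL4, the gamma subunit of the AP-1 clathrin adaptor (YPR029C, chromosome XVI, 624466 to 626964), had a ratio of 1.93 ± 0.01. The subunit genes APL2, APM1 and APS1 were at -0.12, 0.45 and -0.16. SLP1, a membrane protein of the endoplasmic reticulum, had a ratio of 1.85 ± 0.04 and EMP65, its partner in a complex, one of -0.01.

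Genes of the cell surface and of uptake were also among them. SIM1, of the SUN family of wall proteins (YIL123W, chromosome IX, 128151 to 129578), read 2856 with vector, 12686 with the fragment and 14373 with Ssz1 S295F, a ratio of 2.15 ± 0.34, with the widest spread over blocks of the 28. Its family members UTH1, SUN4 and NCA3 were at 0.13, 0.15 and -0.51. MNN2, which adds branches to the mannan of secreted proteins (YBR015C, chromosome II, 267710 to 269503), had a ratio of 1.93 ± 0.11, against 0.13 for its paralogue MNN5. PRY3, a wall protein of the CAP superfamily (YJL078C, chromosome X, 291331 to 293976), read 3779, 13859.6 and 15987.5, a ratio of 1.87 ± 0.02, against -0.47 for PRY1 and -0.11 for PRY2. ACF2, an intracellular endo-1,3-glucanase (YLR144C), had a ratio of 2.11 ± 0.02. NRT1, a carrier of nicotinamide riboside (YOR071C, chromosome XV, 459482 to 461278), read 968, 3474 and 4022, a ratio of 1.84 ± 0.04. Its close relative THI72 was at 2.29 ± 0.07 with a dim vector reading of 119.9, and the thiamine carrier THI7 was at 0.69. These 3 genes are alike in sequence, so their readings may share signal. AMF1, an ammonium transporter (YOR378W, chromosome XV, 1049509 to 1051056), read 269.9, 1263 and 1865, a ratio of 2.23 ± 0.16.

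The remaining genes of these ranks were of metabolism, signalling or unknown function. SHM2, the cytosolic serine hydroxymethyltransferase, had a ratio of 2.07 ± 0.04, and its mitochondrial counterpart SHM1 one of 0.23. DCR2, a phosphatase that counters Ire1 in the unfolded protein response, read 367 with vector, 1612 with the fragment and 1607 with Ssz1 S295F, a ratio of 2.14 ± 0.07. IRE1 was at 0.01 and HAC1, the factor whose mRNA Ire1 splices, at 0.87. MRX6 and PIM1, whose products act together in setting the number of mitochondrial genomes, were at 1.75 ± 0.01 and 1.05, while PET20, of the same complex, was at -0.08. OCA5 was at 1.86 ± 0.09 with the other OCA genes between -0.45 and -0.08. The AAA ATPase gene YTA6 was at 1.84 ± 0.03, with its relatives SAP1 and VPS4 at -0.20 and 0.31. RTK1, which codes for a protein kinase, was at 1.94 ± 0.04 and CUB1 at 1.89 ± 0.03. YPL277C (2.05 ± 0.05), YEL076C-A (2.03 ± 0.06), YFL067W (1.78 ± 0.06) and YFL065C (1.74 ± 0.02) lie near chromosome ends, where genes have close copies elsewhere, so their readings may mix several loci.

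Taking the 21 genes of these ranks for which partners in a complex, a pathway step or a paralogue were listed, 3 of 55 partner genes were higher past 2-fold (RTG3, THI72 and PIM1) and none was lower, and 46 lay within 0.5 of 0. That is 5.45% of the partners, against 3.64% of all genes, so the share of partners called was not below that of all genes. The partner list was drawn up after the ranking was seen. The median ratio of the partners was -0.08. The partners were brighter with vector, with a median intensity of 2955 against 835 for the 21 genes, and shorter, at 1383 against 1986 bp of coding length. On the fragment array the medians were 2991 and 3171. The part of vector level and length in this contrast was not tested.

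**Figure D3:**
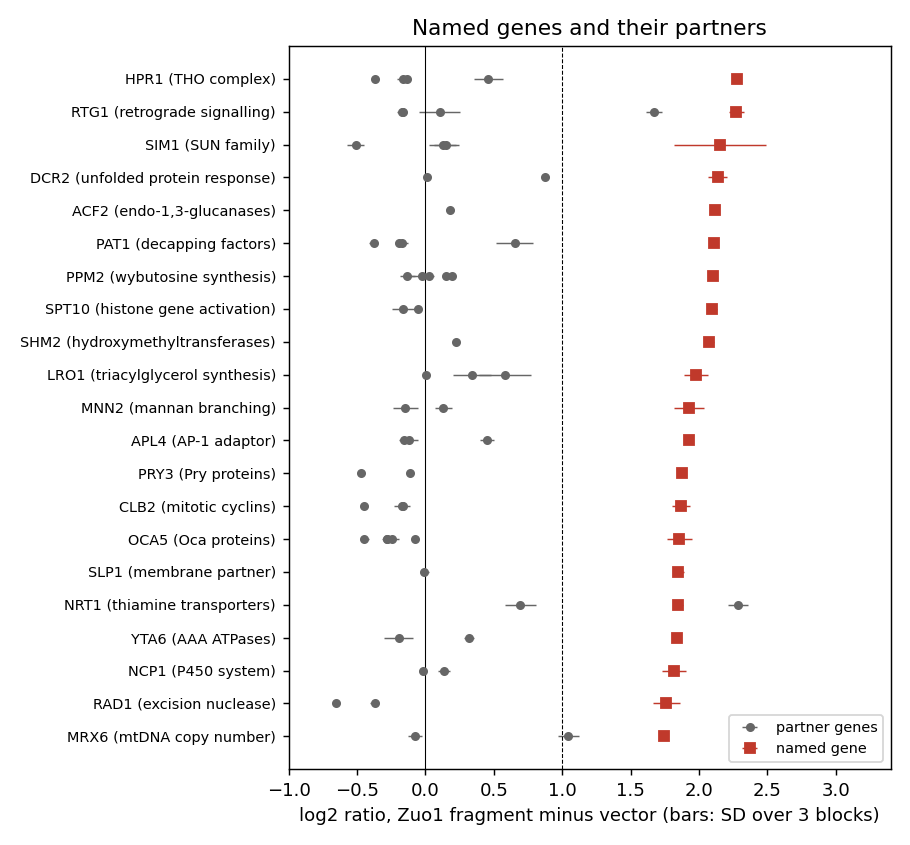
Log2 ratio (x axis; bars are the SD over 3 blocks, technical) of 21 named genes (red squares) and of the genes that share their complex, pathway or family (grey circles), with a dashed line at 2-fold. Nearly every partner lies within 2-fold, with RTG3, THI72 and PIM1 to the right of the line.

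The 76 lists of gene functions held 2419 distinct genes, of which 70 (2.89%) were higher and 10 (0.413%) lower, below the 3.64% and 0.866% of all genes. The other 140 higher and 40 lower genes lie outside the lists. A list is described where at least 2 members passed 2-fold or its median lay at least 0.3 from that of all genes, which 21 lists did. In the described lists the share of higher members ran from 0% to 18.75%, against 3.64% of all genes. Having 2 called members was itself a ground for description, so a high share there is not a result about the list. Of the other 55 lists, 26 had no member past 2-fold and 29 had 1, and their medians lay between -0.32 and 0.13.

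**Figure D4:**
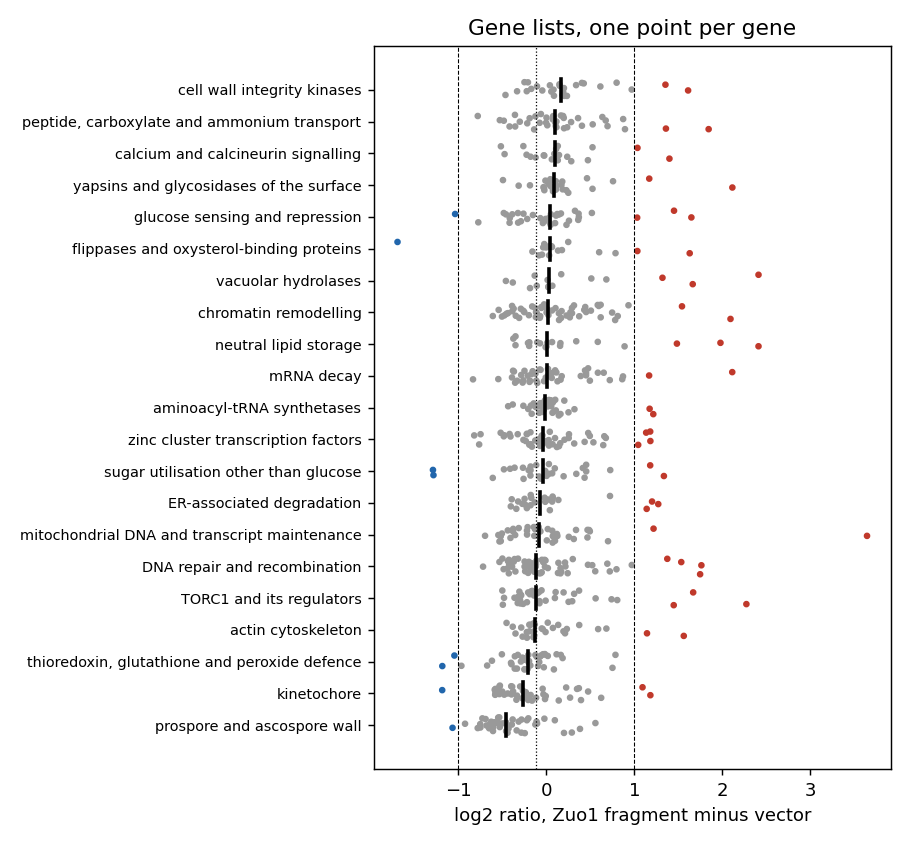
Log2 ratio of each gene in the 21 described lists, 1 point per gene, red where higher and blue where lower past 2-fold, with a black bar at the list's median. The dotted line marks the median of all genes, -0.12. Points are spread vertically at random within a row. Most members lie within 2-fold, and the medians run from -0.46 for prospore and ascospore wall to 0.17 for cell wall integrity kinases.

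In the signalling lists described, between 7.14% and 10% of members were higher, against 3.64% of all genes. Their median coding lengths ran from 1497 to 1686 bp, and of all genes from 1461 to 1731 bp 5.54% were higher. The part of length in these shares was not tested. In the 28 cell wall integrity genes (median 0.17), 2 were higher and none lower. MKK1, the MAP kinase kinase of that pathway, read 1599 with vector, 4880.4 with the fragment and 5509 with Ssz1 S295F, a ratio of 1.61 ± 0.19, and SAC7, a GTPase activator for Rho1, had a ratio of 1.35 ± 0.09. In the 20 genes of calcium and calcineurin signalling (median 0.10), SLM2 (1.40 ± 0.22) and SLM1 (1.03 ± 0.04), a pair of phosphoinositide-binding proteins downstream of TORC2, were higher. The 36 genes of glucose sensing and repression (median 0.04) had 3 higher and 1 lower. SKS1, a kinase of glucose-limited growth, was at 1.65 ± 0.08, the general corepressor TUP1 at 1.45 ± 0.06 and the glucose repressor MIG1 at 1.03 ± 0.00, while the repressor NRG2 was at -1.04 ± 0.02. TUP1 was bright on every array, at 3144, 8591 and 9482. Of 38 genes of TORC1 and its regulators (median -0.12), RTG1, RTG3 and SFP1, an activator of ribosomal protein genes (1.45 ± 0.07), were higher. None of the 53 RPS and 73 RPL genes of the cytosolic ribosome was higher, against 3.64% of all genes. Their medians were -0.08 and -0.09. The level of these genes was not set beside that count, and no gene in the brightest 2 bins by vector level was higher. Whether SFP1 bears on these genes was not tested.

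Membrane and storage lipid genes were described in the flippase and oxysterol-binding list and the neutral lipid list. Of the 19 flippase and oxysterol-binding genes (median 0.04), RSB1, which moves sphingoid bases out of the cell, was at 1.63 ± 0.03 and the flippase DRS2 at 1.03 ± 0.02, while HES1, an oxysterol-binding protein, read 880.0 with vector, 272 with the fragment and 196 with Ssz1 S295F, a ratio of -1.69 ± 0.06. Of 20 genes of neutral lipid storage (median 0.01), LRO1, the lipase gene TGL5 (1.48 ± 0.09) and ATG15 were higher. ATG15, the lipase that breaks down autophagic bodies in the vacuole, read 256.5, 1364 and 1789, a ratio of 2.41 ± 0.03. It also counts among the 16 vacuolar hydrolases (median 0.03), with the alkaline phosphatase PHO8 (1.66 ± 0.05) and the protease PRB1 (1.32 ± 0.04). In each of these lists the median stayed within 0.2 of that of all genes while single members passed 2-fold. Shares of higher members were 10.5%, 15% and 18.75% in the flippase, neutral lipid and vacuolar lists, against 3.64% of all genes.

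Lists of protein degradation, the cell surface, transport and actin followed. In ER-associated degradation (24 genes, median -0.08), USA1 (1.27 ± 0.06) of the Hrd1 ligase, ASI1 (1.20 ± 0.02) of the inner nuclear membrane ligase and the mannosidase gene MNS1 (1.14 ± 0.35) were higher. The block SD of MNS1 was larger than its distance from the threshold. In the list of 26 yapsins and glycosidases of the surface (median 0.09), ACF2 and STE13, the aminopeptidase that matures alpha factor (1.17 ± 0.10), were higher. The list name does not describe these 2, as ACF2 codes for an intracellular enzyme and STE13 for an aminopeptidase. Among 38 genes of peptide, carboxylate and ammonium transport (median 0.10), NRT1 and SSY5, the protease of the amino acid sensor (1.36 ± 0.02), were higher. AMF1 (2.23) was not in that list, so the count does not cover every transporter gene of this kind. In the 29 actin cytoskeleton genes (median -0.13), IQG1, which is needed for the cytokinetic ring (1.56 ± 0.03), and AIP1, which works with cofilin (1.14 ± 0.11), were higher. None of these 4 lists had a lower member. Shares of higher members were 12.5%, 7.69%, 5.26% and 6.90% in the order given, against 3.64% of all genes.

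Described RNA lists were those of mRNA decay and aminoacyl-tRNA synthetases, each with 2 higher members, the number for which a list is described. In mRNA decay (46 genes, median 0.01), these were PAT1 and NAM7, the helicase of nonsense-mediated decay, which read 2067 with vector, 4642 with the fragment and 4831 with Ssz1 S295F, a ratio of 1.17 ± 0.01. Among 37 aminoacyl-tRNA synthetases (median -0.01) these were NAM2, the mitochondrial leucyl enzyme (1.21 ± 0.09), and MES1, the cytosolic methionyl enzyme, at 4260.1, 9606 and 9985, a ratio of 1.17 ± 0.05. Of 39 genes for mitochondrial DNA and transcript maintenance (median -0.08), PET122, a translational activator of COX3 mRNA, had a ratio of 3.64 ± 0.06 from a vector reading of 25.8, a dim one, and SLS1 one of 1.22 ± 0.03.

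Of the described lists of chromosomes and chromatin, that of the kinetochore alone held a lower member. Of 60 DNA repair genes (median -0.12), 4 were higher (6.67%, against 3.64% of all genes) and none lower. Their median coding length was 1894.5 bp. Of all genes from 1731 to 2115 bp 10.6% were higher, so 6.67% is not above the share at that length. RAD4, which recognises bulky lesions, read 645 with vector, 1865 with the fragment and 2052 with Ssz1 S295F, a ratio of 1.53 ± 0.08, and joined RAD1. XRS2 (1.75 ± 0.09) and SAE2 (1.37 ± 0.15), both of double-strand break processing, had vector readings below the 5th percentile. In chromatin remodelling (56 genes, median 0.01), ARP8 of INO80 was at 1.54 ± 0.07, and SWC7 of SWR1 at 2.09 ± 0.11 from a dim vector reading of 29.1. In the kinetochore list (43 genes, median -0.27), CEP3 (1.18 ± 0.08) and SPC24 (1.09 ± 0.02, dim) were higher and SPC25 was lower (-1.18 ± 0.04). SPC24 and SPC25 code for partners in the Ndc80 complex and lay on opposite sides, at 74.7, 159 and 168 for SPC24 and 464.5, 204 and 203 for SPC25. Kinetochore genes are short, with a median coding length of 975 bp, and after subtraction of the trend on length the list's median was -0.08.

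The list of zinc cluster transcription factors, the class of Pdr1, had 4 of 49 members higher (8.16%) and none lower, with a median of -0.04. PUL4 (2.04 ± 0.07, dim with vector) was not in that list, so the count does not cover every gene of this class. Their median coding length was 2490 bp, and of all genes from 2118 to 2844 bp 5.36% were higher. The 4 higher members were CEP3, which binds centromeres, MAL13 of the maltose genes (1.18 ± 0.27), RDS1 (1.13 ± 0.05, dim) and UGA3, an activator of GABA genes (1.04 ± 0.09). Of 202 genes whose descriptions in the files speak of a transcription factor, activator or repressor, 17 (8.42%) were higher and 1 was lower, against 3.64% and 0.866% of all genes. The median ratio of the 202 was -0.03 and their median coding length 1591.5 bp. Of all genes from 1461 to 1731 bp 5.54% were higher, and the part of length in the share of 8.42% was not tested. Some of the 17 are only targets of such factors, such as CIS1, FRE8 and YPL088W. Factors proper among them, picked for mention after their values were seen, were YAP7 (1.42), PHO2 (1.33), VHR1 (1.16), FKH2 (1.13), STE12 (1.06) and NDD1 (1.06). FKH2 and NDD1 act together on G2/M genes, a set that includes CLB2 (1.87). The other mitotic cyclin genes CLB1, CLB3 and CLB4 were at -0.45, -0.17 and -0.16. A link of any of these readings to the 2 factors was not tested. PDR1 read 1416 with vector and 1344 with the fragment.

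Of 129 genes whose descriptions hold the words protein kinase, 9 (6.98%) were higher and none was lower, against 3.64% and 0.866% of all genes. The matches are by text, and CUB1 among them is described as a substrate. The kinases, again picked after their values were seen, included YPK2 (2.59 ± 0.03), a relative of Ypk1 in TORC2 signalling, PSK1 (1.35), HRR25, a casein kinase (1.26), KIC1 (1.04) and SKY1 (1.01). HRR25 read 2377 with vector, 5704 with the fragment and 6028 with Ssz1 S295F. The median over these 129 genes was 0.01, and their median coding length of 1917 bp exceeds the 1233 bp of all genes. In the bin of all genes from 1731 to 2115 bp, 10.6% were higher, so 6.98% is not above the share at that length.

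Sugar and redox lists held lower members. Of 30 genes of sugar utilisation other than glucose (median -0.04), XKS1, the xylulokinase (1.34 ± 0.12), and MAL13 were higher, and MAN2 (-1.28 ± 0.09) and DSF1 (-1.29 ± 0.02), both mannitol dehydrogenases, were lower. MAN2 and DSF1 are near-identical and both read below the 5th percentile with the fragment, at 166 and 185, so they are not independent values. The 41 genes of thioredoxin, glutathione and peroxide defence (median -0.21) had no higher member and 2 lower ones. TSA2, a cytosolic peroxiredoxin, read 767 with vector, 372 with the fragment and 282 with Ssz1 S295F, a ratio of -1.05 ± 0.03, and SRX1, which repairs oxidised peroxiredoxins, had a ratio of -1.18 ± 0.05 with both readings below the 5th percentile. These genes are also short, at a median of 702 bp, and their median was 0.04 after the length trend was subtracted.

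The list furthest from the median of all genes was that of the prospore and ascospore wall, with a median of -0.46 over 44 genes. Its median ratio was -0.30 with Ssz1 S295F, and with the fragment it became -0.37 after subtraction of the length trend. IRC18, a protein of the ascospore wall, was its one member past 2-fold, at 365 with vector and 174 with the fragment. These genes are used in sporulation, and their median intensity with vector was 263, against 2806 for all genes. Without the 25% of genes that were dimmest by level, the median of the members that remained was 0.022. How many members remained is not given here. Among all genes binned by the mean level of both arrays, the 578 in the dimmest bin had a median ratio of -0.44. In the dimmest bin by vector level it was -0.29, and by fragment level -0.49. The list's median of -0.46 was close to the values by mean and by fragment level, and below that by vector level. The part of the low level in the list's median was otherwise not tested.

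Among families defined by a shared gene-name root with at least 10 measured members, the highest medians were those of UBP (0.16), PDR (0.05), ALG (0.04), MET (0.03) and MCM (0.03). The largest in each were UBP13 (0.75) and UBP8 (0.71), deubiquitinating enzymes, PDR5 (0.78) and PDR16 (0.58) of drug resistance, ALG6 (0.63) and ALG9 (0.36) of N-glycan assembly, MET13 (3.49) and MET30 (0.61) of methionine metabolism, and MCM6 (0.26) and MCM7 (0.21) of the replicative helicase. Of these 10, MET13 alone passed 2-fold. Low medians were those of PAU (-0.63), SPO (-0.40), IRC (-0.40) and SPC (-0.37). PAU genes encode wall mannoproteins of anaerobic growth and have near-identical copies, and PAU21 (-1.28) and PAU3 (-1.12) were lowest. For the others these were SPO74 (-0.78) and SPO11 (-0.71), IRC18 (-1.07) and IRC21 (-0.74), and SPC25 (-1.18) and SPC29 (-0.58). Coding length moved with this order only in part. Median lengths were 363 bp for PAU, 825 for SPC, 753 for IRC and 1219.5 for SPO, against 2379 for UBP, 4002 for PDR, 1444.5 for ALG, 1591.5 for MET and 2328 for MCM. After subtraction of the length trend the medians were -0.25 for PAU, -0.07 for SPC, -0.16 for IRC and -0.28 for SPO. They were 0.11 for UBP, 0.06 for PDR, 0.04 for ALG, 0.10 for MET and 0.01 for MCM. The highest medians after that subtraction were those of RPS (0.18) and RPL (0.16), so the order given here depends on it. The part of length beyond this subtraction was not tested.

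The share of called genes differed along coding length. With all genes put in 10 equal bins by length, the median ratio was -0.38 in the shortest bin and 0.10 in the bin of 1731 to 2115 bp. In that bin 61 of 577 genes (10.6%) were higher, against 0.692% between 852 and 1026 bp and 4.67% in the longest bin. Lower genes made up 3.11% of the shortest bin. The median coding length was 1827 bp for higher genes and 664.5 bp for lower genes. Subtracting the length trend left 212 higher and 20 lower calls, which include 190 and 19 of those without the subtraction. The part of coding length in the other calls was not tested.

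**Figure D5:**
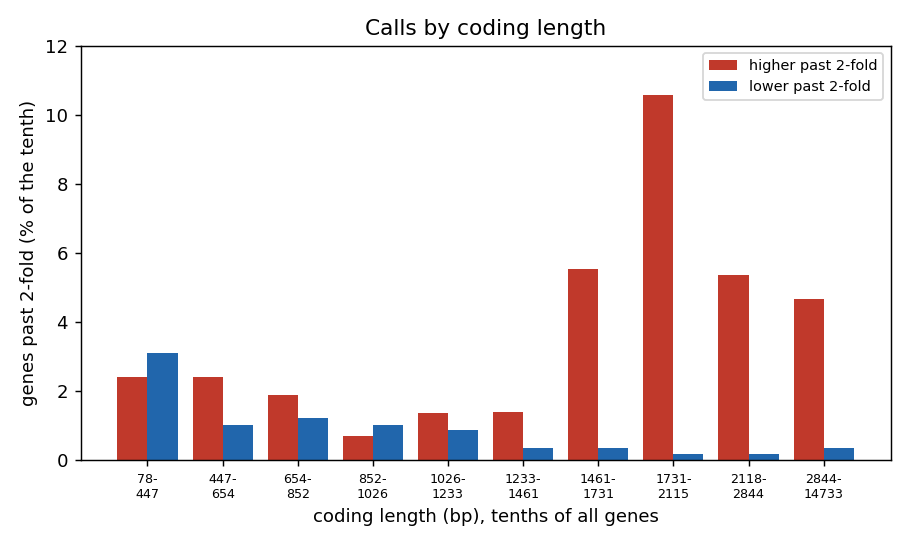
Share of genes higher (red) and lower (blue) past 2-fold, as percent of each of 10 equal bins of all genes by coding length (x axis, bp). Higher genes peak at 10.6% between 1731 and 2115 bp, and lower genes at 3.11% in the shortest bin.

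The share of called genes was larger near chromosome ends. Within 10 kb of the outermost measured gene, 15 of 142 (10.6%) were higher and 7 (4.93%) lower, against 3.24% and 0.671% of the genes beyond 30 kb. The higher ones include ERO1, the oxidase that drives disulfide formation in the endoplasmic reticulum, at 1876 with vector and 4726 with the fragment (1.33 ± 0.18), and MSC1 (1.72 ± 0.02). Many of the others are open reading frames of unknown function with close copies at several ends, such as YEL076C (1.59 ± 0.05), YHL049C (1.67 ± 0.01), YLR462W (1.17 ± 0.05) and YFL064C (1.18 ± 0.02), and cannot be told apart from those copies here. The median vector level (log2) was 9.95 within 10 kb and 11.51 beyond 30 kb. Of 18 genes of the mitochondrial DNA, 5 were higher, with a median ratio of 0.67. The 5 were the intron-encoded AI1 (1.43 ± 0.06), AI2 (2.06 ± 0.05), AI3 (2.58 ± 0.12) and AI4 (1.42 ± 0.04) of COX1, and ATP8 (1.60 ± 0.13), which has 2 probes. The spans of AI1 to AI4 overlap one another and COX1, so these 4 readings may share signal and are not separate values. COX1 itself read 1586 and 2254 (0.51 ± 0.04) and OLI1 3922 and 4020.0 (0.04 ± 0.01). Of the 5, 4 had a vector reading below the 5th percentile, and the median vector level of the 18 was 6.96. The part of low level in these shares was not tested.

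Of the 50 lower genes, 12 had a brighter reading at or above the 25th percentile of its array and 38 did not. The median intensity of the 50 was 586 with vector, 237 with the fragment and 199.7 with Ssz1 S295F, and for 22 the reading with the fragment lay below the 5th percentile. Sizes were smaller than on the higher side, with 7 genes at -1.5 or less and 1 at -2 or less, and 27 lay within 0.2 of the threshold. Of the 1218 genes described in the files with the words unknown function, 21 (1.72%) were lower and 50 (4.11%) higher, against 0.866% and 3.64% of all genes.

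Among the called genes, 3 higher and 6 lower ones were not past 2-fold with Ssz1 S295F against the same vector array, and the difference between constructs has no test. YPL088W, an aryl-alcohol dehydrogenase-like gene, read 3438 with vector, 7013 with the fragment and 6482 with Ssz1 S295F, so its ratios were 1.03 ± 0.03 and 0.91 ± 0.04. YHL009W-B (1.18 and 0.91) and YJL113W (1.09 and 0.77), both open reading frames of Ty retrotransposons with near-identical copies, were dim on the vector array. Over the 61 genes whose descriptions hold the word retrotransposon the median was 0.35 with the fragment and 0.59 with Ssz1 S295F.

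On the lower side, MHT1, a homocysteine methyltransferase that uses S-methylmethionine (YLL062C, chromosome XII, 16639 to 17613), read 2152 with vector, 879 with the fragment and 1310.3 with Ssz1 S295F. Its ratios were -1.29 ± 0.06 and -0.72 ± 0.04. FLO11, the flocculin of adhesion and invasive growth (YIR019C, chromosome IX, 389569 to 393672), read 911, 451 and 527, with ratios of -1.01 ± 0.08 and -0.79 ± 0.05. YCL021W-A read 2823, 1173 and 1533, with ratios of -1.27 ± 0.03 and -0.88 ± 0.06. In each of these 3 genes the Ssz1 S295F reading lay between the other two. IRC18 (-1.07 and -0.34), YAR035C-A (-1.16 and -0.44) and YJL047C-A (-1.02 and -0.56) complete the set, the first pair with dim readings and the last measured by 1 probe. Of the 9 genes, YPL088W, YHL009W-B and MHT1 kept the call under all 8 other settings that keep every gene and the threshold. YCL021W-A and YJL113W kept it under 7, YAR035C-A under 6, FLO11 and IRC18 under 4, and YJL047C-A under 2.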

How the data were processed

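Per the labels and the series' design text, total RNA of pooled cultures was hybridised to 1 one-colour array per plasmid. The authors deposited 1 linear intensity per gene and block, made with RMA per the submitters' processing notes. For the software, its version and any joint normalization of the arrays, nothing is stated (not given in the sources used here). Every gene has, per the file headers, 3 values per array, 1 per block, from up to 8 probes, so the number of arrays limits the precision. A further column without a stated meaning was not used.

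Intensities were put on the log2 scale, averaged over the 3 blocks and subtracted between arrays, with no floor, pseudocount or further normalization (Python 3.11.15, numpy 2.4.6, pandas 2.3.3, figures with matplotlib 3.10.9). The calculation was tested on simulated data. With 1 array per group there was no test, and a called gene is one past 2-fold. A reading is called dim below the 5th percentile of its array. Names came from a RefSeq gene table of assembly R64, matched for 5771 genes by locus tag. Its coordinates were not used. Coding length is the span from start to stop codon, introns included. Coding spans that overlap another measured gene belong to 14 higher and 2 lower genes, with no regard to strand.

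Named genes were those of ranks 13 to 40 (higher) and 13 to 30 (lower, none left) among called genes whose brighter reading reached the 25th percentile, those past 2-fold with the Zuo1 fragment and not with Ssz1 S295F, called members of described lists, the 2 furthest members of each named family, and ZUO1. Of the families with low medians, 1 is not reported here. Genes picked outside this rule are the partners, the mating type genes, the genes near chromosome ends and of the mitochondrial DNA, PDR1, and genes named by words in their descriptions. Members, lists and rules were chosen with earlier results of these data known. Alternatives were other scalings, filters, thresholds and single blocks. Shares of promoters with a motif were planned and not computed, as no promoter sequence was used here.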

Additional observations from a re-analysis of the deposited data

How the results depend on the processing

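No paired analysis was possible because each group has 1 array. The count of higher genes (210) stayed within 1.5 times under the series-wide value table, centring, quantile normalization, subtraction of level or length trends, single blocks and removal of dim readings or overlapping genes, between 166 and 300. It was 115 without the lowest 25% of genes by level, 439 at 1.5-fold and 91 at 3-fold. The count of lower genes (50) was 31 after centring, 27 after quantile normalization, 16 with the level trend and 20 with the length trend subtracted, 10 without the lowest 25% by level, 28 without dim readings, 414 at 1.5-fold and 4 at 3-fold. Fewer genes were tested under both filters; for the others the cause was not tested. The median of the prospore and ascospore wall list changed sign, to 0.022, without the lowest 25% by level. Of 836 list medians under the alternatives, 424 moved by more than their block SD. The sign changed for 32 of 76 lists with the level trend subtracted, 30 after centring, 24 with the length trend subtracted, 6 after quantile normalization, and 3 or fewer under each other setting. All 28 genes of ranks 13 to 40 remained past 2-fold under each of the 8 settings that keep every gene and the threshold, while of the 9 genes not past 2-fold with Ssz1 S295F 3 did (FLO11 and IRC18 under 4, YJL047C-A under 2). On the lower side 22 of 50 genes had a dim reading, and on the higher side 44 of 210. No replicate of any array exists here, so the spread between cultures is unknown for every value.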
